A study of Mus musculus with 8 samples.

Results

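The genes described here were the 4 myogenic regulatory factors *Myf5*, *Myod1*, *Myog* and *Myf6*, the paired-box factors *Pax7* and *Pax3*, the cofactor *Mef2c*, and the adhesion molecules *Cdh15* and *Ncam1*. Their probes were chosen by name only, as every non-control probe whose array identifier is a mouse RefSeq transcript of these 9 genes, which gave 13 of the 56605 non-control probes on the array. The members are 9 of the 22911 genes for which a probe could be named. These genes and the related lists below were themselves chosen with earlier results of these data known. *Ncam1* was represented by 4 probes, *Mef2c* by 2 and each of the other genes by 1, so that probes of *Ncam1* or *Mef2c* are repeated views of the same gene and not separate members. Total RNA of quadriceps muscle from 3 Grsf1cKO and 3 wild-type (WT) mice, all males aged 17 months, had been hybridized to Agilent 1-color arrays in a study of how loss of the mitochondrial RNA-binding protein GRSF1 affects muscle at advanced ages. In Grsf1cKO mice, exons IV and V of *Grsf1* are flanked by LoxP sites and removed by Cre recombinase expressed from *Myf5* (Myf5Cre), and the mutant allele had been freed of its LacZ and Neo cassettes with FLPo. Whether the WT mice carried a floxed or a Cre allele is not stated in the sources used here. The sample labels name the muscle as the vastus intermedius, while the study's text names the rectus femoris, another head of the quadriceps.

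Muscle stem cells, the satellite cells, lie between the muscle fiber and its basement membrane and are marked by PAX7, while PAX3 acts mainly in the embryonic muscle precursors and persists in satellite cells of some muscles. When satellite cells are activated they express MYF5 and MYOD1, then MYOG as they leave the cell cycle and differentiate, and they fuse into fibers with the help of myomaker and myomixer, whereas MYF6 is made mostly by mature fibers. M-cadherin (encoded by *Cdh15*) and NCAM1 sit on the surface of satellite cells and myoblasts, and NCAM1 and the fetal acetylcholine receptor subunit encoded by *Chrng* also appear on immature and on denervated fibers. The driver *Myf5* is itself 1 of the 9 genes, and it is active in embryonic muscle precursors, so that Cre acts from before birth in cells that give rise to fibers and to many satellite cells. The arrays measured whole muscle, in which fewer cells of a type and less RNA per cell cannot be told apart.

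The 8 arrays comprised 1 for each mouse and a repeat array for Grsf1cKO 1 and for WT 1, and the arrays of a mouse were averaged. Between 66.2% and 73.1% of spots were well above background on 7 arrays and 88.8% on the repeat array of Grsf1cKO 1. Member probes differed between the arrays of a mouse by up to 0.42 on the log2 scale in Grsf1cKO 1 and by up to 0.08 in WT 1. Over all tested probes the standard deviation of repeat minus first was 0.68 in Grsf1cKO 1 and 0.26 in WT 1. The 25th percentile of the processed signal was 55.4 on the repeat array of Grsf1cKO 1 and between 9.64 and 15.6 on the other arrays. Averaged values of dim probes in Grsf1cKO 1 therefore include an array unlike its first. All Grsf1cKO arrays lay on slide 2, together with WT 3 and the repeat array of WT 1, and the first arrays of WT 1 and WT 2 lay on slide 1. The *Grsf1* probe (A_51_P200776) read 12.16, 12.03 and 12.09 log2 units in the Grsf1cKO mice and 14.31, 14.26 and 14.28 in the WT mice, a difference of -2.19 ± 0.0815 (SE, adjusted *p* = 0.00275, limma), so that the genotype labels were borne out in every mouse. The place of this probe relative to the floxed exons was not analysed here. All 12 muscle fiber markers examined, among them *Acta1*, *Ckm* and *Myh4*, were well above background in all 6 mice. Grsf1cKO 3 stood apart, because 236 of 38859 probes (0.607%) were at least 1 log2 unit above all other mice in it, against 0.0592% to 0.296% in each of the other mice. The differences of *Myog* and *Ncam1* are therefore given with and without it.

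A log2 signal below is the log2 of the quantile-normalized processed signal, and a difference is Grsf1cKO minus WT in log2 units. A level on this scale can be compared between mice for 1 probe but not between probes, so the order of the genes by abundance was not read from these arrays. Of the 13 probes, 12 (8 of the 9 genes) were well above background and were tested together with 38886 probes in all. A probe was called when it differed by more than 1.5-fold with *p* below 0.01 and a false discovery rate below 0.2 in limma, and 0 of the 12 were called, where 0.00771% of all probes were. The count at an unadjusted *p* under 0.05 was also 0, against 4.24% of all probes. Both counts were 0 by a *z*-test run on the log2 values used here, not on *z*-scores as in the methods. The differences of 10 of the 12 probes were above 0, with a median of 0.10 against -0.03 over all probes tested. All *Ncam1* probes, which are repeated views of 1 gene, were among the 10. Counted by the brightest probe of each gene, 6 of 8 genes were above 0, also with a median of 0.10. Grsf1cKO and WT values were fully separate for 2 of the 12 probes, both of *Ncam1* and both higher in Grsf1cKO, where 9.36% of all probes were fully separate and 3.09% were so with Grsf1cKO higher. With 3 mice against 3, the smallest *p* that an exact permutation test can give is 0.1, and nothing in the sources says that the mice shared a litter or cage.

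**Figure D1:**
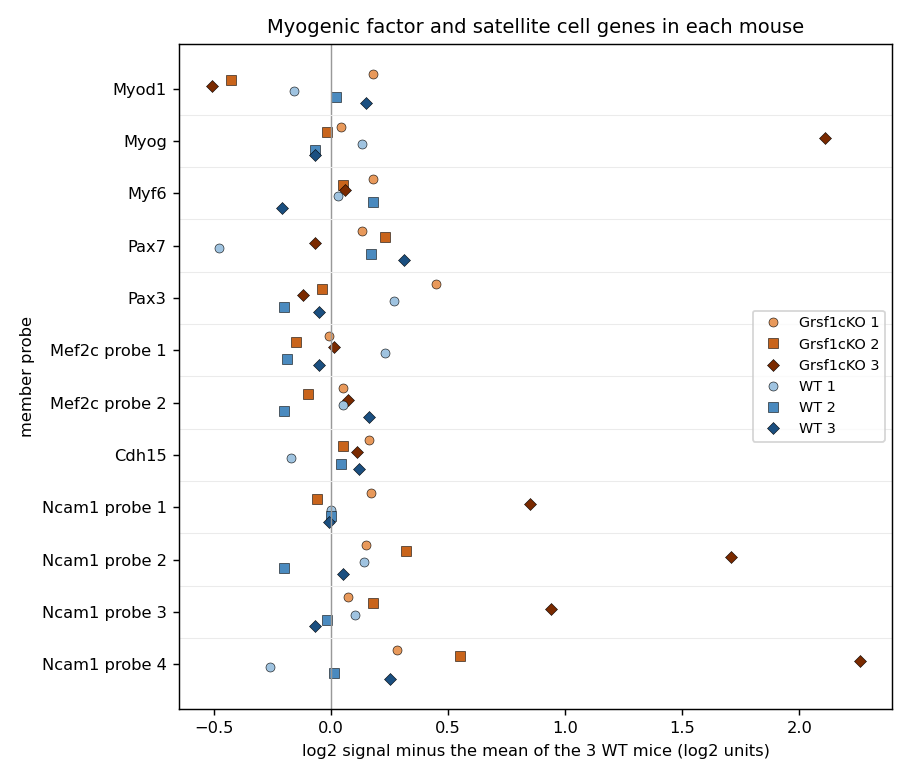
Log2 signal of each tested member probe minus the mean of the 3 WT mice, with 1 point for each mouse (Grsf1cKO in orange and brown, WT in blue). *Mef2c* and *Ncam1* probes are numbered from the brightest, and *Myf5*, which was not above background, is not drawn. Grsf1cKO 3 lies to the right of all other mice for *Myog* and for the 4 *Ncam1* probes, and within or near the range of the other mice for the rest.

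Among the myogenic regulatory factors, *Myf5* was not measurable, *Myod1* and *Myf6* overlapped between the genotypes, and *Myog* was high in a single Grsf1cKO mouse. *Myf5*, the earliest of the factors in the embryo and the source of Cre in this model, had a single probe (A_51_P188281, transcript NM_008656) that was well above background on 0 of 8 arrays. Its processed signal lay between 3.49 and 9.18, while the dimmest spots called well above background on these arrays read between 15.8 and 26.3. Its signal is therefore only a bound in both genotypes and no fold is given.

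*Myod1*, the factor that commits cells to the muscle lineage, was well above background on all 8 arrays (A_51_P351166, NM_010866). Its log2 signal was 11.56, 10.95 and 10.87 in the Grsf1cKO mice (in the order 1, 2 and 3 here and below) and 11.22, 11.40 and 11.53 in the WT mice. Grsf1cKO 1 was the highest of all mice and Grsf1cKO 2 and 3 the lowest, so the genotypes overlapped. The difference was -0.25 ± 0.205 (SE, adjusted *p* = 0.994, limma), with a 95% interval from -0.75 to 0.25 and *p* = 0.4 by exact permutation. Grsf1cKO 1 moved this value most, and without it the difference was -0.47 ± 0.13. The difference was -0.16 without Grsf1cKO 2 and -0.12 without Grsf1cKO 3.

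*Myog*, which encodes myogenin, the factor of terminal differentiation, showed the widest spread of the regulatory factors (A_51_P102122, NM_031189). The probe read 9.25, 9.19 and 11.32 log2 units in the Grsf1cKO mice and 9.34, 9.14 and 9.14 in the WT mice. Both genotypes overlapped between 9.14 and 9.34 in the other 5 mice, while Grsf1cKO 3 lay 1.98 above the next mouse. Before normalization the processed signal was 2300 on the array of Grsf1cKO 3 and between 515 and 792 on the other 7 arrays. Only 38 of 38859 probes (0.0978%) had Grsf1cKO 3 at least as far above every other mouse. The mean difference was 0.71 ± 0.573 (1.64-fold, adjusted *p* = 0.994, limma), with a 95% interval from -0.69 to 2.11 and *p* = 0.5 by exact permutation. Without Grsf1cKO 3 it was 0.01 ± 0.112, so that the mean difference of *Myog* rested on this mouse, and on slide 2 alone, with all 3 Grsf1cKO mice, it was 0.67.

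The promoter of *Myog* is shown beside those of *Myh3* and *Chrng*, which were the genes with the pattern most like *Myog* and *Ncam1* over the mice (given further on), and that of *Cdh15*, a member with little spread. Each sequence is the 250 bases before the annotated start, read 5′ to 3′ on the gene's strand, from RefSeq on GRCm38.p6, at chr1:134289754-134290003 for *Myog*, chr11:67078050-67078299 for *Myh3*, chr1:87205561-87205810 for *Chrng* and chr8:122848124-122848373 for *Cdh15*, all on the plus strand. Capitals mark the E-box, CANNTG, to which the myogenic regulatory factors bind as dimers with E proteins, and CTANNNNTA, a pattern of many MEF2 sites, both searched on both strands.
Myog: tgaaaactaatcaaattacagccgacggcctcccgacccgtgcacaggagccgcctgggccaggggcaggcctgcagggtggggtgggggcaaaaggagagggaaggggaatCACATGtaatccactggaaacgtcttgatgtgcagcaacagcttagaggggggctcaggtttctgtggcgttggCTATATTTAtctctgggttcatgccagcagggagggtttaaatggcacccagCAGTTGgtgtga
Myh3: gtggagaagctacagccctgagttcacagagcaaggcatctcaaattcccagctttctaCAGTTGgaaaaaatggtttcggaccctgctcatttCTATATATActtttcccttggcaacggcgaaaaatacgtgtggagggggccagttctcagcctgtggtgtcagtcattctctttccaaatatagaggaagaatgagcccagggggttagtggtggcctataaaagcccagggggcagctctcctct
Chrng: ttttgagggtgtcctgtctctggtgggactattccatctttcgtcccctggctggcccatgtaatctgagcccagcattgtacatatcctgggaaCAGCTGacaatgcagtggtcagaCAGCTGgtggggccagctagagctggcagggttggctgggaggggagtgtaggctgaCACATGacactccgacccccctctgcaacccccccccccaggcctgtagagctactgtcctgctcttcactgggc
Cdh15: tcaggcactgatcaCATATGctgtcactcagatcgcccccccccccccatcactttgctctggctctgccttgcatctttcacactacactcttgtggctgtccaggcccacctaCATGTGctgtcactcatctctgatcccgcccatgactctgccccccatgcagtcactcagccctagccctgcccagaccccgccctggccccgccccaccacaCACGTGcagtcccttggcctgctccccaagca

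The *Myog* window holds CACATG from 138 to 133 bases before the start, CTATATTTA from 64 to 56 bases and CAGTTG from 12 to 7 bases. In *Myh3*, CAGTTG and CTATATATA lie 191 to 186 and 156 to 148 bases before the start. *Chrng* has 3 E-boxes, of which those at 155 to 150 and 132 to 127 bases are the form CAGCTG, and *Cdh15* has 3 E-boxes of other forms. Of 32851 promoters of this length, 66.2% hold at least 1 CANNTG, 12.2% hold 3 or more, 13.0% hold CAGCTG, 19.0% hold CTANNNNTA and 13.0% hold both CANNTG and CTANNNNTA. These matches describe letters in the windows and are not evidence of binding. Promoters of 5 of the 9 member genes were found in the RefSeq table, and *Myod1*, *Myf6*, *Pax3* and *Ncam1* had no entry.

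*Myf6*, the factor made mostly by mature fibers, spanned 14.79 to 15.18 log2 units over the mice (A_51_P386794, NM_008657). Its log2 signal was 15.18, 15.05 and 15.06 in the Grsf1cKO mice and 15.03, 15.18 and 14.79 in the WT mice. WT 3 was the lowest and the other mice overlapped. Without WT 3 the difference was -0.01, and over all mice it was 0.10 ± 0.124 (95% interval from -0.20 to 0.40, adjusted *p* = 0.994, limma, and *p* = 0.5 by exact permutation).

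Neither paired-box gene separated the genotypes. *Pax7*, the marker of quiescent satellite cells, read 8.64, 8.74 and 8.44 in the Grsf1cKO mice and 8.03, 8.68 and 8.82 in the WT mice (A_66_P105609, NM_011039). The WT mice held both the highest and the lowest value. The difference was 0.10 ± 0.221, with a 95% interval from -0.44 to 0.64 (adjusted *p* = 0.997, limma, and *p* = 0.9 by exact permutation). Leaving out 1 mouse at a time gave differences from -0.14 without WT 1 to 0.25 without WT 3, so *Pax7* had no settled direction. *Pax3*, the paralog of *Pax7*, read 9.45, 8.96 and 8.88 in the Grsf1cKO mice and 9.27, 8.80 and 8.95 in the WT mice (A_55_P2033705, NM_008781). The values of mouse 1 of each genotype were the highest, and the genotypes overlapped. The difference of *Pax3* was 0.09 ± 0.197 (95% interval from -0.39 to 0.57, adjusted *p* = 0.997, limma, and *p* = 0.6 by exact permutation), and it was -0.09 without Grsf1cKO 1 and -0.02 on slide 2 alone. These intervals bound the differences and do not show that the paired-box genes were equal in the genotypes.

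*Mef2c*, a MADS-box factor that acts together with the myogenic regulatory factors and is abundant in fibers, did not separate the genotypes by either probe. The brighter of its 2 probes (A_65_P01126, NM_001170537) read 16.44, 16.30 and 16.46 in the Grsf1cKO mice and 16.68, 16.26 and 16.40 in the WT mice. The other (A_55_P2155620, NM_025282) read 12.07, 11.92 and 12.09 in the Grsf1cKO mice and 12.07, 11.82 and 12.18 in the WT mice. For both probes the Grsf1cKO values lay inside the range of the WT values. The differences were -0.05 ± 0.132 (95% interval from -0.37 to 0.28) and 0.01 ± 0.122 (95% interval from -0.29 to 0.31), each with adjusted *p* = 0.998 in limma.

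Neither adhesion molecule passed the criteria. *Cdh15*, which encodes M-cadherin, read 12.75, 12.64 and 12.70 in the Grsf1cKO mice and 12.42, 12.63 and 12.71 in the WT mice (A_51_P481930, NM_007662). WT 1 was the lowest and the remaining 5 mice overlapped, with a difference of 0.11 ± 0.107 (95% interval from -0.15 to 0.37, adjusted *p* = 0.994, limma, and *p* = 0.4 by exact permutation) that was 0.02 without WT 1. *Ncam1*, a marker of satellite cells and of immature and denervated fibers, was higher in Grsf1cKO by all 4 probes, and Grsf1cKO 3 was the highest mouse by each. The probe with the largest difference (A_55_P2028942, NM_010875) read 7.79, 8.06 and 9.77 in the Grsf1cKO mice and 7.25, 7.52 and 7.76 in the WT mice. All Grsf1cKO values were above all WT values, by a margin of 0.03 between the closest pair. The difference was 1.03 ± 0.522 (2.05-fold), with a 95% interval from -0.24 to 2.31, adjusted *p* = 0.994 in limma and *p* = 0.1 by exact permutation. The second probe for NM_010875 (A_55_P2050602) read 9.02, 9.19 and 10.58 against 9.01, 8.67 and 8.92, again without overlap, by a margin of 0.01. Its difference was 0.73 ± 0.414 (1.66-fold, 95% interval from -0.28 to 1.74, adjusted *p* = 0.994, limma, and *p* = 0.1 by exact permutation).

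The other pair of *Ncam1* probes, listed under NM_001113204, did overlap. The brightest of all 4 (A_52_P613255) read 9.26, 9.03 and 9.94 in the Grsf1cKO mice and 9.09, 9.09 and 9.08 in the WT mice, and A_51_P380309 read 9.10, 9.21 and 9.97 against 9.13, 9.01 and 8.96. Their differences were 0.32 ± 0.232 and 0.39 ± 0.237, with *p* = 0.4 and *p* = 0.2 by exact permutation. Grsf1cKO 3 lay above every other mouse by 0.67, 1.39, 0.76 and 1.71 log2 units from the brightest to the dimmest probe, distances reached by 1.34%, 0.283%, 1.06% and 0.170% of all probes. Without Grsf1cKO 3 the differences of the 4 probes were 0.06, 0.24, 0.12 and 0.42 in the same order, and the dimmest gave adjusted *p* = 0.946 in limma. The pair of probes without overlap still did not overlap without Grsf1cKO 3, where 6.95% of all probes had Grsf1cKO higher without overlap. With only the first array of each mouse, or with the arrays scaled to their 75th percentile in place of quantile normalization, 3 member probes, all of *Ncam1*, did not overlap, where 9.14% and 8.18% of all probes did not. Without Grsf1cKO 1, 2 member probes reached an unadjusted *p* under 0.05 in limma, where 4.46% of all probes did, the dimmest *Ncam1* probe with a difference of 1.41 ± 0.503 and *Myod1* with the value given above. With replicate number as a block in limma, 1 member probe did, the dimmest of *Ncam1*, where 6.18% of all probes did.

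**Figure D2:**
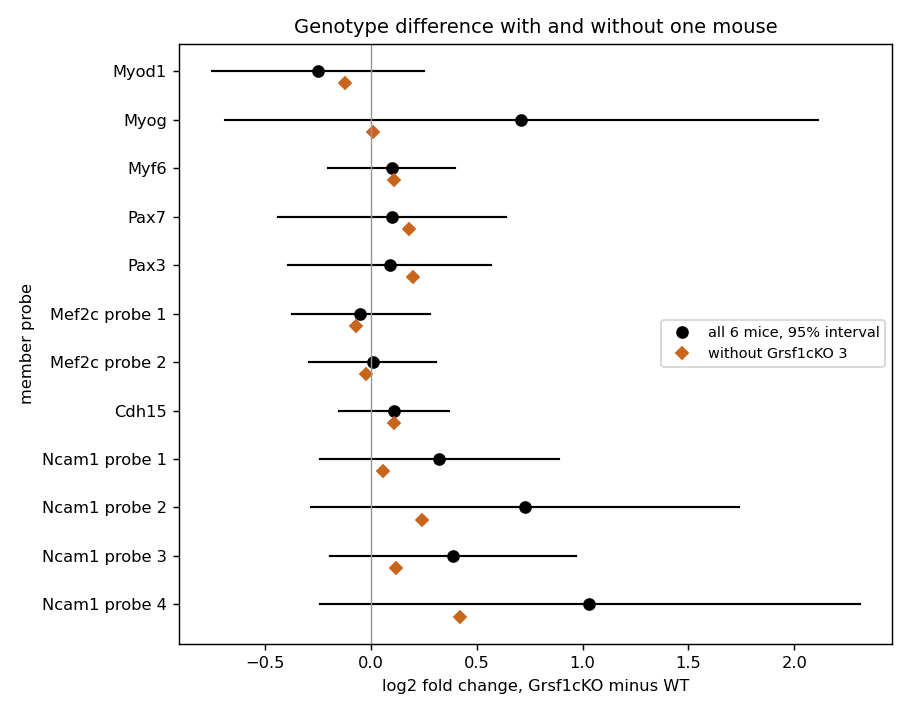
Log2 fold change (Grsf1cKO minus WT) of each tested member probe over all 6 mice, as black points with 95% intervals from limma, and without Grsf1cKO 3, as orange diamonds. All 12 intervals include 0, and *Myog* moves from 0.71 to 0.01 when Grsf1cKO 3 is left out.

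*Myog* and *Ncam1* varied together over the 6 mice, with Pearson's *r* between 0.94 and 0.98 for *Myog* against the 4 *Ncam1* probes. Over the other 5 mice the same *r* lay between -0.52 and 0.56, so that the likeness rested on Grsf1cKO 3. Among the *Ncam1* probes *r* lay between 0.93 and 0.99 over 6 mice and between -0.07 and 0.78 without Grsf1cKO 3. *Pax7* and *Cdh15* gave *r* = 0.81 over the 6 mice and 0.90 without Grsf1cKO 3, and both were lowest in WT 1. *Pax7* against the brighter *Mef2c* probe gave *r* = -0.88. These correlations describe 6 mice that share arrays, normalization and a tissue, and they were not tested.

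The gene most like each member among 128 genes of related lists and cell type markers was found by Pearson's *r* over the 6 mice. For *Myog* this was *Myh3*, the embryonic myosin heavy chain, with *r* = 0.992, and for the brightest *Ncam1* probe it was *Chrng*, the fetal acetylcholine receptor gamma subunit, with *r* = 0.996. Without Grsf1cKO 3 these were -0.455 and 0.933. In the latter, Grsf1cKO 1 was the highest mouse for both genes, and its brightest *Ncam1* probe read 9.05 on the first array and 9.47 on the repeat. Without Grsf1cKO 3 that probe gave *r* between -0.07 and -0.02 with the other *Ncam1* probes, so the 0.933 does not extend to them. *Myod1* was most like *Myh11*, a smooth muscle myosin, with *r* = 0.914 and 0.851 without Grsf1cKO 3. *Pax7* was closest to *Rapsn*, which encodes the receptor-clustering protein rapsyn (*r* = 0.959). *Mef2c* was closest to the titin gene *Ttn* (*r* = 0.921), *Cdh15* to the fast troponin T gene *Tnnt3* (*r* = 0.928) and *Myf6* to the receptor gene *Notch1* (*r* = 0.825). *Tnnt3* read 19.13 in 5 mice and 19.08 in WT 1, so its coefficient rests on a small dip in a single mouse. Each is the highest of 128 coefficients over 6 mice and is given as a description.

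Of the 12 genes of differentiation, fusion and immature fibers, 8 were highest in Grsf1cKO 3, which was the highest mouse for 16.3% of all probes, among them *Myh8*, level with WT 3 at the printed digits, and *Mybph*, *Cav3*, *Dysf* and *Des* were not. *Myh3* read 9.86, 10.07 and 15.31 in Grsf1cKO 1, 2 and 3 and 10.01, 9.98 and 10.28 in the WT mice. *Chrng* read 7.17, 5.71 and 11.37 against 6.50, 5.95 and 6.08. In both, Grsf1cKO 3 was far above 5 mice that overlapped, by 5.03 log2 units for *Myh3* and 4.20 for *Chrng*, and without it the differences were -0.13 and 0.26. The genes of the next sentences were chosen after their values were seen. *Mymk*, which encodes the fusion protein myomaker, read 7.03, 6.76 and 11.32 in the Grsf1cKO mice and 7.03, 7.40 and 7.43 in the WT mice, a difference of 1.08 that was -0.39 without Grsf1cKO 3. *Mymx*, which encodes its partner myomixer, read 8.62, 7.55 and 11.39 against 6.89, 7.53 and 6.61, with the genotypes apart by 0.02, and its difference of 2.17 ± 0.955 (adjusted *p* = 0.994, limma) was 1.07 without Grsf1cKO 3. *Tnnt2* and *Myl4*, the cardiac troponin T and atrial light chain genes that immature fibers also use, lay 2.35 and 2.58 above every other mouse in Grsf1cKO 3, and their differences of 0.90 and 1.04 were 0.01 and -0.07 without it. The dimmer *Myh3* probe, well above background in 3 mice, read 5.55, 5.22 and 5.98 against 5.16, 4.48 and 4.51, values that are partly at background and give no fold. The brighter probe of *Myh8*, the perinatal myosin, read between 18.71 and 18.80 in all mice, and its dimmer probe read 6.96 in Grsf1cKO 3 and between 4.56 and 5.61 in the others. Myosin heavy chain genes share long stretches of sequence, so the probe readings of *Myh3* and *Myh8* are uncertain as to the gene.

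**Figure D3:**
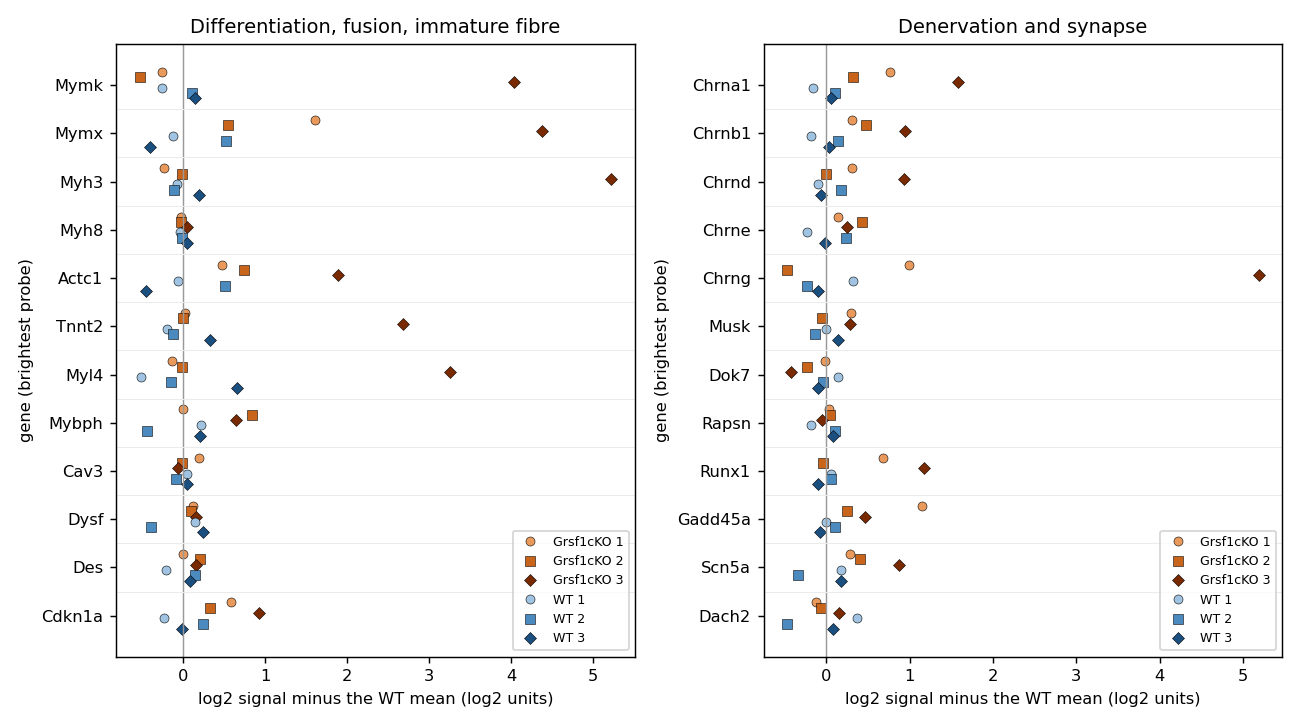
Log2 signal minus the WT mean for the brightest probe of each gene of differentiation, fusion and immature fibers (left) and of denervation and the synapse (right), with 1 point for each mouse. Grsf1cKO 3 is the highest mouse for 8 of the 12 genes on the left (*Myh8* level with WT 3) and 6 of the 12 on the right, against 16.3% of all probes.

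Of the 12 genes of differentiation, fusion and immature fibers, 0 passed the criteria, 11 had differences above 0 and the median difference was 0.75, against -0.03 over all probes. The mean of the list relative to WT was 0.19, 0.18 and 1.94 in Grsf1cKO 1, 2 and 3, and without Grsf1cKO 3 the median was 0.09. At an unadjusted *p* under 0.05, reached by 1.30% of all probes in this direction, 2 of the 12 were higher, *Actc1* and *Cdkn1a*. *Actc1*, the cardiac actin also made by immature fibers, read 14.04, 14.31 and 15.46 against 13.50, 14.08 and 13.12, a difference of 1.04 ± 0.425 that became 0.61 without Grsf1cKO 3. *Cdkn1a*, the cyclin-dependent kinase inhibitor p21 that accompanies cell cycle exit, read 12.09, 11.84 and 12.43 against 11.27, 11.75 and 11.50. Its genotypes did not overlap by this probe, and the difference of 0.61 ± 0.194 was 0.46 without Grsf1cKO 3. The dimmer *Cdkn1a* probe, well above background in all 6 mice, did overlap. It read 5.98, 5.48 and 5.86 against 5.64, 5.74 and 5.74, a difference of 0.07. The study's text reports no significant change of p21 mRNA between Grsf1cKO and WT muscle by RT-qPCR, without showing the values. The adjusted *p* was 0.994 in limma for both genes, and without WT 1 the count of 2 became 0.

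The 12 genes of denervation and the synapse belong to the receptor complex or, like *Ncam1*, are known to respond to loss of innervation. Of them, 10 had differences above 0, and the median was 0.47 against -0.03 over all probes. The list mean was 0.40, 0.09 and 0.95 in Grsf1cKO 1, 2 and 3, and without Grsf1cKO 3 the median was 0.27. *Chrna1*, the acetylcholine receptor alpha subunit, read 13.23, 12.79 and 14.05 in the Grsf1cKO mice and 12.31, 12.57 and 12.53 in the WT mice. All Grsf1cKO mice were above all WT mice, and the difference was 0.89 ± 0.314 (1.85-fold, adjusted *p* = 0.994, limma) and 0.54 without Grsf1cKO 3. *Chrnb1*, the beta subunit, read 9.92, 10.08 and 10.55 against 9.43, 9.75 and 9.64, with a difference of 0.58 ± 0.187 and 0.39 without Grsf1cKO 3. *Gadd45a*, a stress gene that denervated muscle expresses, read 12.68, 11.78 and 11.99 against 11.52, 11.63 and 11.45, highest in Grsf1cKO 1, and differed by 0.62 ± 0.237 over all mice and by 0.35 without Grsf1cKO 1. These 3 of 12 genes had an unadjusted *p* under 0.05 in limma, reached by 1.30% of all probes in this direction, with 0 past the criteria. The count ranged from 0 without WT 1, where 4.21% of all probes reached it in either direction, to 6 without Grsf1cKO 2, where 4.18% did.

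Partners and inhibitors of the myogenic factors had no member past the criteria. At an unadjusted *p* under 0.05, 2.94% of all probes were lower in Grsf1cKO, and 6.27% were lower without overlap. Of 17 partners tested, 16 had differences below 0, with a median of -0.10 against -0.03 over all probes, and without Grsf1cKO 3 the median was -0.03 against -0.02 and 4 of the 17 were above 0. Grsf1cKO 3 was the highest mouse for 0 of them (16.3% of all probes). *Vgll2*, a muscle cofactor, overlapped between the genotypes, with a difference of -0.17 ± 0.112. Of 18 inhibitors, 1 was lower at an unadjusted *p* under 0.05, 7 had differences above 0 and 11 below, with a median of -0.03, and without WT 1 the median was 0.03 and 12 of the 18 were above 0. *Twist1*, which blocks MYOD1 and MEF2, read 8.50, 9.07 and 9.09 against 9.53, 9.33 and 9.82, without overlap, and *Id1*, which sequesters E proteins, read 12.12, 12.50 and 11.88 against 12.99, 12.64 and 12.14. Their differences were -0.68 ± 0.208 and -0.42 ± 0.259, each with adjusted *p* = 0.994 in limma, and that of *Id1* was -0.22 without WT 1. Without Grsf1cKO 3 the difference of *Twist1* was -0.78.

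Of 19 satellite cell surface and Notch pathway genes, 12 had differences above 0 and 7 did not, with a median of 0.04. *Vcam1*, an adhesion molecule of satellite cells and of activated endothelium, read 10.03, 10.30 and 10.49 in the Grsf1cKO mice and 9.85, 9.93 and 9.97 in the WT mice, without overlap. Its difference was 0.36 ± 0.134 (adjusted *p* = 0.994, limma) and 0.25 without Grsf1cKO 3. *Chrdl2*, a BMP antagonist, overlapped, with a difference of 0.35 ± 0.333 that lay between 0.04 without WT 2 and 0.58 without Grsf1cKO 3. Of 8 proliferation genes 7 were tested, and 5 of the 7 were highest in Grsf1cKO 3, against 16.3% of all probes. *Mki67*, the standard marker of cycling cells, read 7.04, 7.24 and 8.72 against 7.22, 6.72 and 6.71, a difference of 0.78 ± 0.456 that became 0.26 without Grsf1cKO 3. *Ccnb1*, the mitotic cyclin B, was well above background in 3 mice only and read 5.18, 4.71 and 6.13 against 4.83, 3.05 and 4.17. Values not above background are only bounds, so no fold is given for this gene, and it was not tested without Grsf1cKO 3. The median of the 7 genes was 0.29, and without Grsf1cKO 3 it was -0.05 over the 6 genes then tested.

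Markers of other cell types were set beside these results. The mean of 7 macrophage and leukocyte markers relative to WT was 0.57 in Grsf1cKO 3 and between -0.10 and 0.15 in the other 5 mice, and 4 of the 7 were highest in Grsf1cKO 3 (16.3% of all probes). *Cd68*, a lysosomal protein of macrophages, read 11.81, 11.97 and 13.31 in the Grsf1cKO mice and 11.66, 11.86 and 11.57 in the WT mice, and *Ptprc*, the leukocyte antigen CD45, read 9.04, 9.05 and 10.38 against 9.13, 9.43 and 8.80. Their differences of 0.66 and 0.38 were 0.19 and -0.07 without Grsf1cKO 3. The T cell marker *Cd3e*, named after its values were seen, was not highest in this mouse. The part of these cells in the values of *Myog* and *Ncam1* was not tested. The mean of the 12 muscle fiber markers lay between -0.15 and 0.09 in all 6 mice, and 5 of the 12 were highest in Grsf1cKO 3. Among them, and named after their values were seen, the slow troponin T gene *Tnnt1* read 14.39 in Grsf1cKO 3, 1.36 above every other mouse (a difference of 0.51, and -0.12 without it), while the slow myosin gene *Myh7* read 9.40 in it and between 9.28 and 11.39 in the others. The means of 5 endothelial markers lay between -0.10 and 0.07, those of 5 mural cell markers between -0.14 and 0.14, and those of 6 Schwann cell and nerve markers between -0.10 and 0.24. The mean of 5 fibro-adipogenic and fibroblast markers lay between -0.13 and 0.25, with its highest value in Grsf1cKO 3, where 2 of the 5 genes were highest. The 5 adipocyte markers had the widest spread of the marker lists, from -0.62 in WT 3 to 0.37 in WT 1, and 0 markers of each list passed the criteria.

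**Figure D4:**
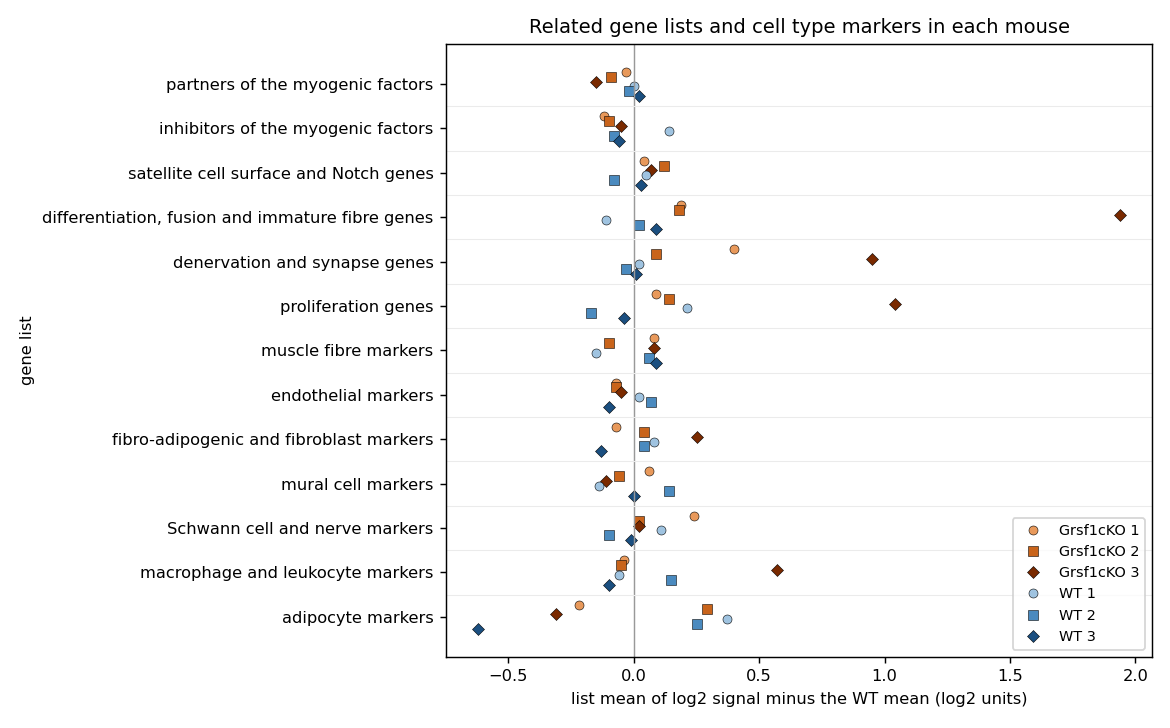
Mean over the tested genes of each list of the log2 signal minus the WT mean, with 1 point for each mouse. Grsf1cKO 3 is at 1.94 for differentiation, fusion and immature fiber genes, 1.04 for proliferation genes, 0.95 for denervation and synapse genes and 0.57 for macrophage and leukocyte markers, above every other mouse in each. The means of the proliferation genes include *Ccnb1*, of which some values are only bounds.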

How the data were processed

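Total RNA was labeled with Cy3 and hybridized to 1-color arrays, and the authors deposited the Feature Extraction (version 12.0.3.1) output of each array, whose processed signal is a background-corrected intensity per spot on a linear scale. They also deposited a *z*-score for each spot, a score made from the log2 signal centered and scaled within its array. Per the methods, intensities were quantile normalized and compared by a *z*-test on *z*-scores.

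Here the log2 processed signal of all 8 arrays was quantile normalized in a single step without control and outlier spots, then averaged by probe and by mouse. A probe was tested if at least 3 of 6 mice had it well above background and each genotype had values in at least 2 mice. Genotype was fitted with limma 3.58.1 (R 4.3.3), and *p* was adjusted by Benjamini-Hochberg over 38886 probes. Single values were compared by a two-sided exact permutation test. Names came from a RefSeq table of GRCm38.p6 by accession (32994 of 56605 probes), while the array design uses mm9. The members and lists were chosen with earlier results of these data known. Named genes were all members, *Grsf1*, list genes with an unadjusted *p* under 0.05 or else the 2 with the largest difference, and the gene most like each member; a few of these are not reported here. For a gene with several probes the brightest stood for it in list counts. Alternatives covered normalization, background correction (normexp, offset of 50), the *z*-scores, detection filters, repeat arrays, slide, test, pairing and each mouse left out. Scripts were tested on simulated data. The number of arrays limits the precision. Probe sequences were not used here.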

Additional observations from a re-analysis of the deposited data

How the results depend on the processing

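Among differences of member probes recomputed under 12 settings, of which slide 2 alone has no array of WT 2 and the others keep all mice, 136 kept their direction and did not pass the criteria, and 8 turned direction, by the sign before rounding (*Pax3* with the *z*-scores, at 0.00, counts as kept). Those of the dimmer *Mef2c* probe, 0.01 over all mice, were -0.01 with 75th percentile scaling, -0.01 with normexp, -0.04 with the deposited *z*-scores, 0.00 with repeat arrays replacing first arrays, -0.04 with the slide as a block and -0.09 on slide 2 alone. The brighter *Mef2c* probe gave 0.09 with the *z*-scores and *Pax3* gave -0.02 on slide 2 alone. With 1 mouse left out, differences lay between -0.09 and 0.22 for *Pax3*, -0.14 and 0.25 for *Pax7*, -0.01 and 0.19 for *Myf6*, 0.02 and 0.17 for *Cdh15*, and -0.14 and 0.07 and -0.09 and 0.09 for the brighter and the dimmer *Mef2c* probe. The causes were not tested. The 75th percentile scaling moved the median of all probes from -0.03 to 0.01. Member probes past the criteria numbered 0 in every setting run. Member probes with an unadjusted *p* under 0.05 ranged from 0 to 2 with a mouse left out (2 without Grsf1cKO 1), where 4.18% to 5.46% of all probes did. Deviations from the genotype means correlated between the genotypes with *r* = 0.23, 0.10 and 0.09 for replicate numbers 1, 2 and 3. With so few mice these values cannot show whether the numbers pair the mice, and the sources do not say. In a fit that blocked on replicate number (replicate block), 1 member probe, the dimmest of *Ncam1*, had an unadjusted *p* under 0.05, where 6.18% of all probes did, and 0 probes of the whole array were lower in Grsf1cKO, against 2 without the block. Over the whole array 1 probe was higher, against 2 with normexp, 2 with an intensity trend in limma and 1 to 2 with a mouse left out (2 without WT 2). Lower probes numbered 1 on slide 2 alone. A *z*-test run on the log2 values used here, not on *z*-scores as in the methods, gave 81 higher and 239 lower probes. For genes near background, signal limits what can be seen, and *Myf5* could not be measured.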

Other observations

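Probes in which Grsf1cKO 3 lay farthest above all other mice included other genes than those of the lists. *Tnni1*, the slow troponin I, had gaps of 3.12 and 2.70 log2 units by its 2 probes, and *Dclk1*, a microtubule-associated kinase, had gaps of 2.86 and 2.75. *Lgals3*, the galectin-3 gene expressed by macrophages, had gaps of 2.28 and 2.21, and *Itgax*, the integrin CD11c, had 2.25. *Ankrd1*, a stress-responsive muscle ankyrin repeat gene, had a gap of 1.92 and *Krt8*, a simple epithelial keratin, one of 1.99. The gap of *Myog* was 1.98. These genes were named after their values were seen, they describe 1 mouse, and nothing in the labels or in the *Grsf1* signal sets this mouse apart.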
